A study of Mus musculus with 4 samples.

Results

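The genes examined here are 34 genes that mark lung macrophages or subsets of them, read in RNA from smooth muscle cells that were sorted from mouse lung with or without inactivation of *Tet3*. They were taken by gene symbol from the deposited table of 21462 genes, and 34 of 34 were found. All 34 had a mean of at least 10 normalized counts over the libraries, as had 16659 genes of the table, and 34 were therefore tested. By the role each gene is known for, they were placed in 6 groups of 5 lineage factors and adaptors, 7 surface and lysosome genes common to macrophages, 6 scavenger and clearance receptors, 9 genes of alveolar macrophages, 4 of interstitial macrophages and 3 of lipid-associated macrophages.

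The study compared 2 Tet3 mutant with 2 control libraries from C57BL/6 lungs. Mutant mice carried floxed *Tet3*, a tamoxifen-inducible Cre driven by the α-SMA promoter and a tdTomato reporter. In the study's general description, controls lacked the floxed allele but carried the Cre, the reporter or both. Controls sorted for tdTomato, as here, must have carried the reporter. Adult mice were given tamoxifen, lungs were digested, cells bearing CD45 or Ter-119 were removed with magnetic beads, and living tdTomato+ cells were sorted. CD45 is present on macrophages, so this step was meant to take out the cells whose genes are described here. The α-SMA promoter is active in several contractile cell types of the lung, and which of them the sort held was not tested. Sex, age and preparation batch are not in the labels. The study describes the libraries of a group as coming from separate animals.

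Resident macrophages of the lung are of alveolar and interstitial kinds. Alveolar macrophages live in the air space, clear surfactant and depend on GM-CSF and the nuclear receptor PPARγ, which gives them a programme of lipid uptake and storage. Interstitial macrophages live in the tissue around airways and vessels, are replenished in part from monocytes and carry receptors such as folate receptor β and the mannose receptor. Both need the transcription factor PU.1.

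Among the 34 genes, all 5 lineage genes, 3 of 4 interstitial genes and 3 of 6 scavenger receptor genes had both mutant libraries above both controls. That pattern was found in 19.6% of all genes tested. Most alveolar macrophage genes were instead set apart by 1 low control library. No gene passed the adjusted threshold. To show both kinds of gene, the 250 bases before the transcription start are printed for *Trem2* and *Mrc1*, which were higher in both mutants, and for *Chil3* and *Marco*, which were low in control replicate 2 alone. Sequences are from RefSeq on GRCm38.p6, written in the direction of transcription, and capitals mark GAGGAA or its reverse complement TTCCTC, the core letters that PU.1 recognizes. The windows are chr17:48346151-48346400 on the plus strand for *Trem2*, chr2:14229164-14229413 on the plus strand for *Mrc1*, chr3:106167565-106167814 on the minus strand for *Chil3* and chr1:120505025-120505274 on the minus strand for *Marco*.
Trem2: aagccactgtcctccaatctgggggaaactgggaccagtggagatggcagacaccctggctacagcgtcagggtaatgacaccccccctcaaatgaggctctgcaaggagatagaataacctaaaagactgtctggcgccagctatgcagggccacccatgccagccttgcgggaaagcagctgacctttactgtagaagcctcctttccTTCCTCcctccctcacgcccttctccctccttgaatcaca
Mrc1: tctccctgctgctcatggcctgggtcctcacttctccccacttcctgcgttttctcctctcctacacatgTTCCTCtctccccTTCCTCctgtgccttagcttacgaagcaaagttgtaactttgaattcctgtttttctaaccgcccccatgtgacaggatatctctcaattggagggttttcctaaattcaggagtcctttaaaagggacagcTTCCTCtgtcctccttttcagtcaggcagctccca
Chil3: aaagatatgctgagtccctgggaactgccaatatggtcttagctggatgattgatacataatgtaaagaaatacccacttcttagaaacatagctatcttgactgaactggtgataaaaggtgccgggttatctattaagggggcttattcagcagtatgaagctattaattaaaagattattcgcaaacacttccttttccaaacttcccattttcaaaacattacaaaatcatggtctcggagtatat
Marco: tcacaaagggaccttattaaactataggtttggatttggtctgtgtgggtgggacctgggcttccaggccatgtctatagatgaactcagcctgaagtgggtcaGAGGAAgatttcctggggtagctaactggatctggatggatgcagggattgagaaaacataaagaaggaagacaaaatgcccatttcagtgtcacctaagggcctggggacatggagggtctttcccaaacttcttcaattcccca
The 6 letters were searched on both strands, and no other motif was searched. They stand once 40 bases before the start of *Trem2*, 3 times at 180, 167 and 35 bases in *Mrc1*, once at 146 bases in *Marco* and not in the window of *Chil3*. Promoters of 24 of the 34 genes were matched, in 30 windows, and 11 windows held the letters. Of 32851 windows of this length in the table of promoters, 7639 (23.3%) held them. The matches are a description of letters, and both the genes higher in the mutants and those low in 1 control include windows with them.

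Libraries were compared before the genes. Reads assigned to genes were estimated at 6.32 M in the shallowest and 7.56 M in the deepest library. *Tet3*, the targeted gene (chromosome 6, 83362373 to 83459084), had 1847 and 1926 normalized counts in the controls and 1534 and 1444 in the mutants, a log2 fold change of -0.34 (SE 0.10, limma adjusted p 0.681, unadjusted p 0.0184). Control replicate 2 stood apart from the other libraries. It lay at 68.3 on the first principal component, which held 60.9% of the variance, against -36.4 to -11.1 for the others, and it was the library with 2 normalized counts of *Xist* (5214 to 6781 in the others) and with 774 of the Y-linked *Ddx3y* (0 in the others). By these transcripts sex differed between this library and the other 3, and it cannot be told apart from other differences of control replicate 2. Markers of the labelled cell type were present, but so were those of other lung cells. Per kilobase of exon, mean levels were 404 for the smooth muscle actin gene *Acta2*, 575 for *Col1a1* of fibroblasts, 316 for *Pecam1* of endothelium, 910 for *Sftpc* of alveolar type 2 cells and 110 for *Ptprc*, which encodes CD45.

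The macrophage genes were present in all 4 libraries, with mean levels between those of the same markers or below them. On the scale of normalized counts per kilobase of exon, the highest mean level was that of the lysozyme gene *Lyz2* at 895, followed by the cysteine protease *Ctss* at 660, *Lyz1* at 569 and the fatty acid transporter *Cd36* at 508. *Chil3*, *Mrc1* and *Tyrobp* followed at 349, 338 and 329, and *Csf1r* and *Cd68* at 282 and 274. The lowest mean levels were those of *Fabp4* at 16.9, *Trem2* at 19.1, *Msr1* at 22.7 and *Krt79* at 25.7. Neighbours in this order were often inside each other's spread: *Mrc1* ranged from 273 to 398 and *Tyrobp* from 255 to 423 over the libraries, and *Chil3*, with a range of 83.3 to 475, overlapped most of the genes below it. The range of *Ctss*, 564 to 703, lay above the ranges of *Mrc1* and *Tyrobp*.

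**Figure D1:**
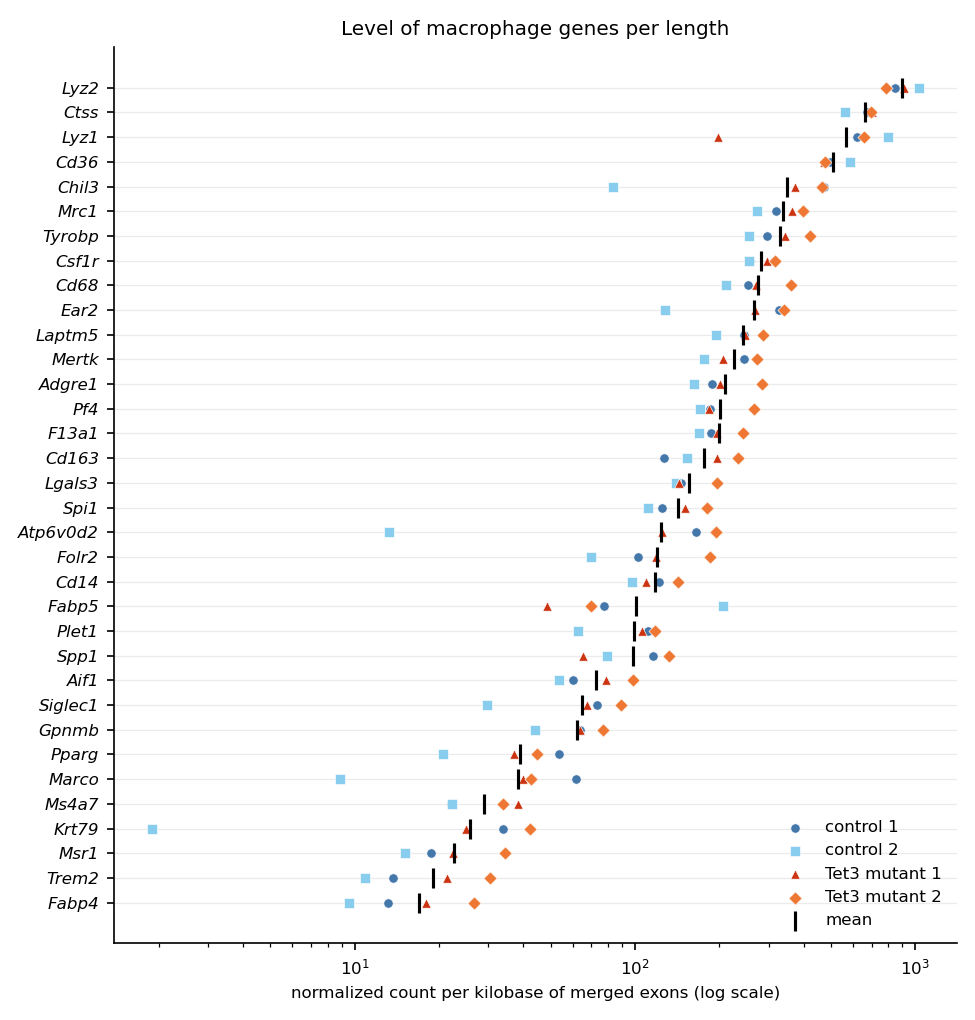
Level of each of the 34 macrophage genes in normalized counts per kilobase of merged exons (log axis), ordered by the mean over the 4 libraries (black bar), with each library as a point. *Lyz2* was highest at a mean of 895 and *Fabp4* lowest at 16.9, and the widest gaps between libraries are those of *Krt79*, *Atp6v0d2*, *Marco* and *Chil3*, each with control replicate 2 far to the left.

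Tet3 mutants were then compared with controls. The log2 fold change was above 0 for 29 of the 34 genes (85.3%), where 49.0% of all tested genes were above 0, and the median over the 34 was 0.43 against -0.01 over all genes tested. No gene of the 34 had a limma adjusted p under 0.05, and the same was true of all genes tested (0.0%). The smallest adjusted p among the 34 was 0.681. At an unadjusted p under 0.05, 10 genes were higher in the mutants (29.4%; 3.83% of all genes tested) and 0 were lower (2.85% of all genes tested). The 10 were *Csf1r*, *Spi1*, *Aif1*, *Mrc1*, *Cd163*, *Msr1*, *Fabp4*, *Folr2*, *Ms4a7* and *Trem2*. Both mutant libraries lay above both controls for 17 genes (50.0%), a pattern found in 19.6% of all genes tested, and below both controls for 2, *Cd36* and *Fabp5*, where the background was 19.5%. With 2 against 2 libraries an exact permutation test of a single gene cannot go below 0.33.

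Single libraries carried part of these counts. Control replicate 2 had the lowest value of the 4 libraries for 27 of the 34 genes (33.1% of all genes tested), and Tet3 mutant replicate 2 had the highest for 25 (22.4% of all genes tested). Without control replicate 2, 22 genes were above 0 instead of 29, and the median was 0.13. The median was 0.28 without Tet3 mutant replicate 2, 0.59 without Tet3 mutant replicate 1 and 0.57 without control replicate 1. Over all genes tested these medians stayed between -0.015 and 0.001. The 17 genes that were above both controls in both mutants were also the 17 genes for which both mutants exceeded control replicate 1, the control that did not stand apart (32.4% of all genes tested).

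**Figure D2:**
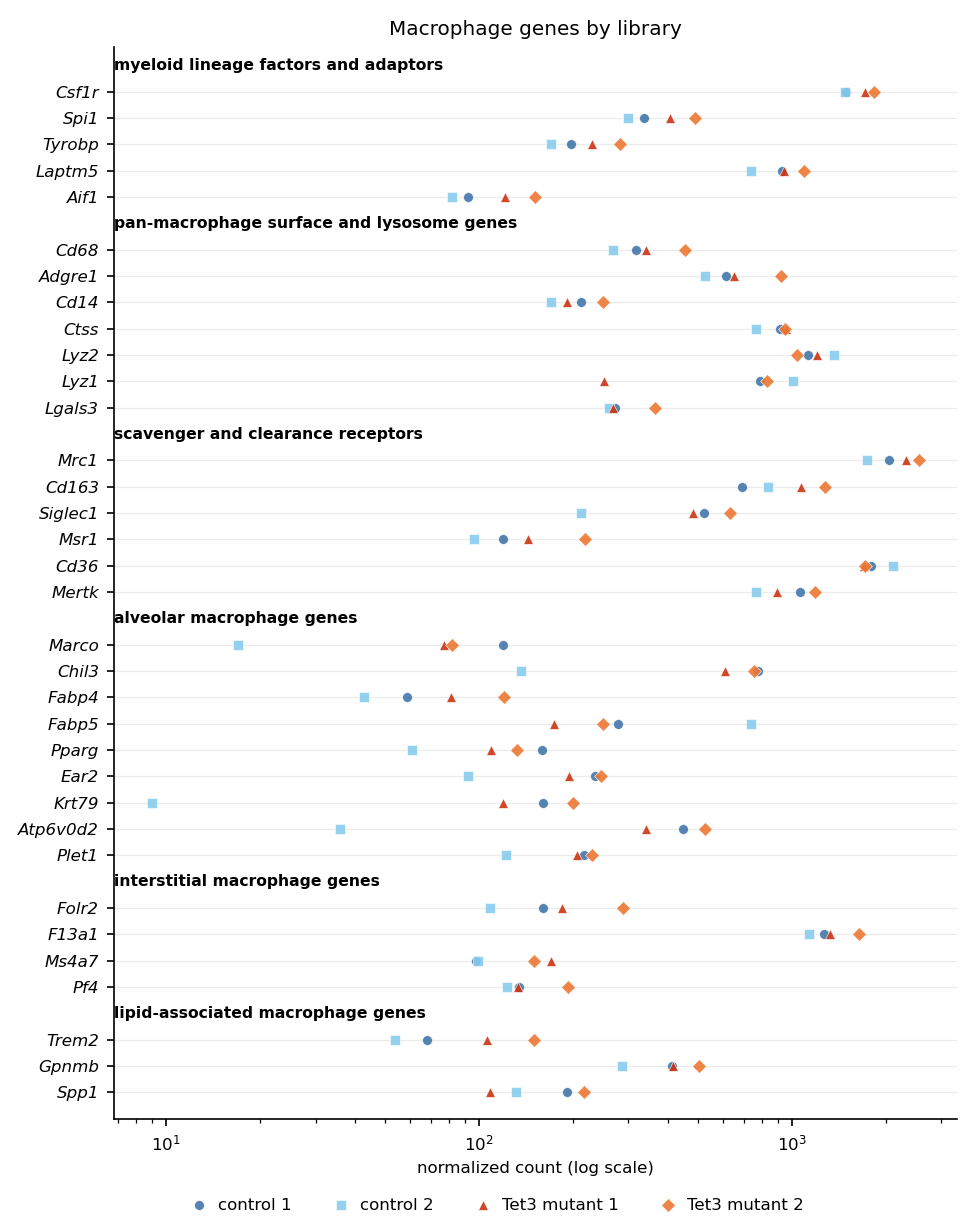
Normalized counts (log axis) of the 34 macrophage genes in control replicates 1 and 2 and Tet3 mutant replicates 1 and 2, grouped by role. All 5 lineage factors and adaptors have both mutants to the right of both controls (19.6% of all genes tested). Among alveolar macrophage genes control replicate 2 is the lowest library for 8 of 9 (33.1% of all genes tested).

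The lineage factors and adaptors were higher in both mutants without exception. All 5 genes had both mutants above both controls (19.6% of all genes tested), with Tet3 mutant replicate 2 highest in each (22.4% of all genes tested). Their median log2 fold change was 0.47 with all libraries and 0.37 without control replicate 2. *Spi1* (chromosome 2, 91082390 to 91115756), which encodes PU.1, had 336 and 298 normalized counts in the controls and 408 and 489 in the mutants, a log2 fold change of 0.50 (SE 0.16, limma adjusted p 0.681). *Aif1* encodes IBA1, an actin-bundling protein of macrophages, and had 92 and 82 in the controls and 121 and 151 in the mutants (log2 fold change 0.63, SE 0.23). *Csf1r*, the receptor for CSF1 and IL-34, had nearly the same value in the controls, 1484 and 1478, and 1707 and 1833 in the mutants (log2 fold change 0.26, SE 0.10). For *Csf1r* the step from the higher control to the lower mutant was larger than the gap between libraries of either group. For *Spi1* and *Aif1* that step was smaller than the gap between the mutants. *Tyrobp*, which encodes the signalling adaptor DAP12, had 197 and 170 against 229 and 282. *Laptm5*, a lysosomal membrane protein of blood cells, had 930 and 737 against 941 and 1089, so that Tet3 mutant replicate 1 barely exceeded control replicate 1.

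Surface and lysosome genes common to macrophages had a lower median. Of the 7 genes, 5 were above 0 (49.0% of all genes tested). Both mutants lay above both controls for 3 of them (19.6% of all genes tested). The median log2 fold change of the 7 was 0.20, and it was 0.05 without control replicate 2 and 0.02 without Tet3 mutant replicate 2. *Cd68*, a lysosomal glycoprotein, had 318 and 267 normalized counts in the controls and 341 and 453 in the mutants (log2 fold change 0.43, SE 0.20). *Adgre1*, which encodes F4/80, had 613 and 527 against 652 and 920 (log2 fold change 0.45, SE 0.20; 0.20 without Tet3 mutant replicate 2). *Lgals3*, which encodes galectin-3, had 271 and 260 against 267 and 365, so its groups overlapped. In all 3 genes Tet3 mutant replicate 1 lay close to control replicate 1 and Tet3 mutant replicate 2 well above. The study reported *Cd68*, *Adgre1* and *Lgals3* as macrophage-enriched genes upregulated in mutant cells, from these same samples and with DESeq2. Their direction here is therefore not independent evidence. In the limma test on rounded scaled counts none of them passed the adjusted threshold. The study's heatmap of such genes also asked for a minimum fold change, which was not applied here. The log2 fold changes found here for these 3 genes lay below that minimum. The limma adjusted p was 0.681 for *Cd68* and *Adgre1* and 0.749 for *Lgals3*, whose log2 fold change was 0.23. *Ctss* had 917 and 766 against 955 and 946, and *Cd14*, a co-receptor for lipopolysaccharide, had 211 and 169 against 191 and 248.

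The lysozyme genes did not share the direction of the others. *Lyz2* had 1120 and 1361 normalized counts in the controls and 1197 and 1033 in the mutants (log2 fold change -0.15, SE 0.15). *Lyz1* had 787 and 1010 in the controls and 250 and 830 in the mutants (log2 fold change -0.97, SE 0.56, limma adjusted p 0.692), with Tet3 mutant replicate 1 alone low and a log2 fold change of -0.10 without that library. Lysozyme is also made by alveolar type 2 cells. The 10 alveolar type 2 markers summed to 17366 and 25984 in the controls and 12067 and 15677 in the mutants, with 0 of 10 above 0 and a median log2 fold change of -0.60, and their part in the lysozyme values was not tested. *Lyz1* and *Lyz2* lie beside each other on chromosome 10 and share 6.22% and 5.96% of their 75-base stretches, and reads from shared stretches were not counted by the authors.

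Among scavenger and clearance receptors, 3 of 6 had both mutants above both controls (19.6% of all genes tested). *Cd163* (chromosome 6, 124304656 to 124330527), the receptor for haemoglobin bound to haptoglobin, had 694 and 835 normalized counts in the controls and 1068 and 1273 in the mutants. The log2 fold change of 0.61 (SE 0.15) had the smallest unadjusted p of the 34 genes, 0.00951, with a limma adjusted p of 0.681. Control replicate 2 was not the lowest library for this gene, and without it the log2 fold change was 0.75. *Mrc1*, the mannose receptor CD206, had 2038 and 1739 against 2310 and 2537 (log2 fold change 0.36, SE 0.13). *Msr1*, the class A scavenger receptor, had 119 and 96 against 143 and 218 (log2 fold change 0.72, SE 0.28). For these 3 receptors the lower mutant library stood above the higher control.

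The other receptors overlapped between groups or went the other way. *Siglec1*, the sialic acid receptor CD169, had 522 and 212 normalized counts in the controls and 482 and 635 in the mutants. A log2 fold change of 0.73 (SE 0.44) shrank to 0.08 without control replicate 2. *Mertk*, a kinase that binds apoptotic cells, had 1061 and 764 against 892 and 1183, with a log2 fold change of 0.19 that turned to -0.05 without control replicate 2 and -0.01 without Tet3 mutant replicate 2. *Cd36*, which is also abundant in capillary endothelium, had 1785 and 2105 against 1699 and 1709 (log2 fold change -0.19, SE 0.12). The 10 endothelial markers had a median log2 fold change of 0.09, with sums of 12958 and 11471 in the controls and 13571 and 12472 in the mutants.

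Alveolar macrophage genes held the widest spread within a group of libraries. Of the 9 genes, 8 had a log2 fold change above 0 and the median was 0.79, but only *Fabp4* had both mutants above both controls (19.6% of all genes tested). Without control replicate 2, 2 of 9 were above 0 and the median was -0.11. Summed over the 9 genes, control replicate 2 held 51.2% of the level in control replicate 1, while the mutants held 77.9% and 104%. Control replicate 2 was at less than 50% of every other library for 6 of the 34 genes (2.44% of all genes tested), and 5 of these 6 were alveolar macrophage genes, the sixth being *Siglec1*.

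*Krt79* (chromosome 15, 101929332 to 101940324), a keratin whose transcript marks alveolar macrophages, had 160 normalized counts in control replicate 1, only 9 in control replicate 2, and then 119 and 200 in the mutants. *Atp6v0d2* (chromosome 4, 19876841 to 19922605), a subunit of the vacuolar proton pump, had 448 and 36 in the controls and 340 and 526 in the mutants. Control replicate 1 exceeded control replicate 2 by 17.8-fold and 12.4-fold in these 2 genes, and control replicate 1 lay between the mutants in both. Their log2 fold changes of 1.95 (SE 1.30) and 1.72 (SE 1.16), the largest of the 34, were -0.05 and -0.08 without control replicate 2.

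*Chil3*, a secreted chitinase-like lectin also called YM1, had 776 and 136 normalized counts in the controls and 610 and 757 in the mutants (log2 fold change 1.06, SE 0.80; -0.19 without control replicate 2). *Marco*, a class A scavenger receptor for inhaled particles, had 119 and 17 against 77 and 82 (log2 fold change 0.79, SE 0.90; -0.58 without control replicate 2). *Ear2*, a ribonuclease of the eosinophil-associated family, had 235 and 92 against 193 and 245. In each of these genes control replicate 1 was at or above the level of the mutants or between them. The window printed for *Marco* held the 6 letters searched and that of *Chil3* did not, and whether the letters bear on the values was not tested. *Pparg*, which encodes PPARγ, had 159 and 61 against 109 and 132 (log2 fold change 0.28, SE 0.48; -0.40 without control replicate 2). *Plet1*, a surface protein of alveolar macrophages and some epithelial cells, had 216 and 122 against 206 and 230 (0.42, SE 0.30; 0.01 without control replicate 2).

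The fatty acid binding proteins of this group differed from the rest and from each other. *Fabp4*, which is also made by capillary endothelium, had 59 and 43 normalized counts in the controls and 81 and 120 in the mutants, a log2 fold change of 0.96 (SE 0.33, limma adjusted p 0.681, unadjusted p 0.0329), and 0.73 without control replicate 2. *Fabp5*, made by several epithelial and endothelial cells as well, had 278 and 738 in the controls and 173 and 249 in the mutants, a log2 fold change of -1.12 (SE 0.49, limma adjusted p 0.681), and -0.42 without control replicate 2, which was the highest library for this gene and the lowest for the other 8. The libraries had the same order for *Fabp5* as for the summed alveolar type 2 markers, and the part of those cells was not tested.

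**Figure D3:**
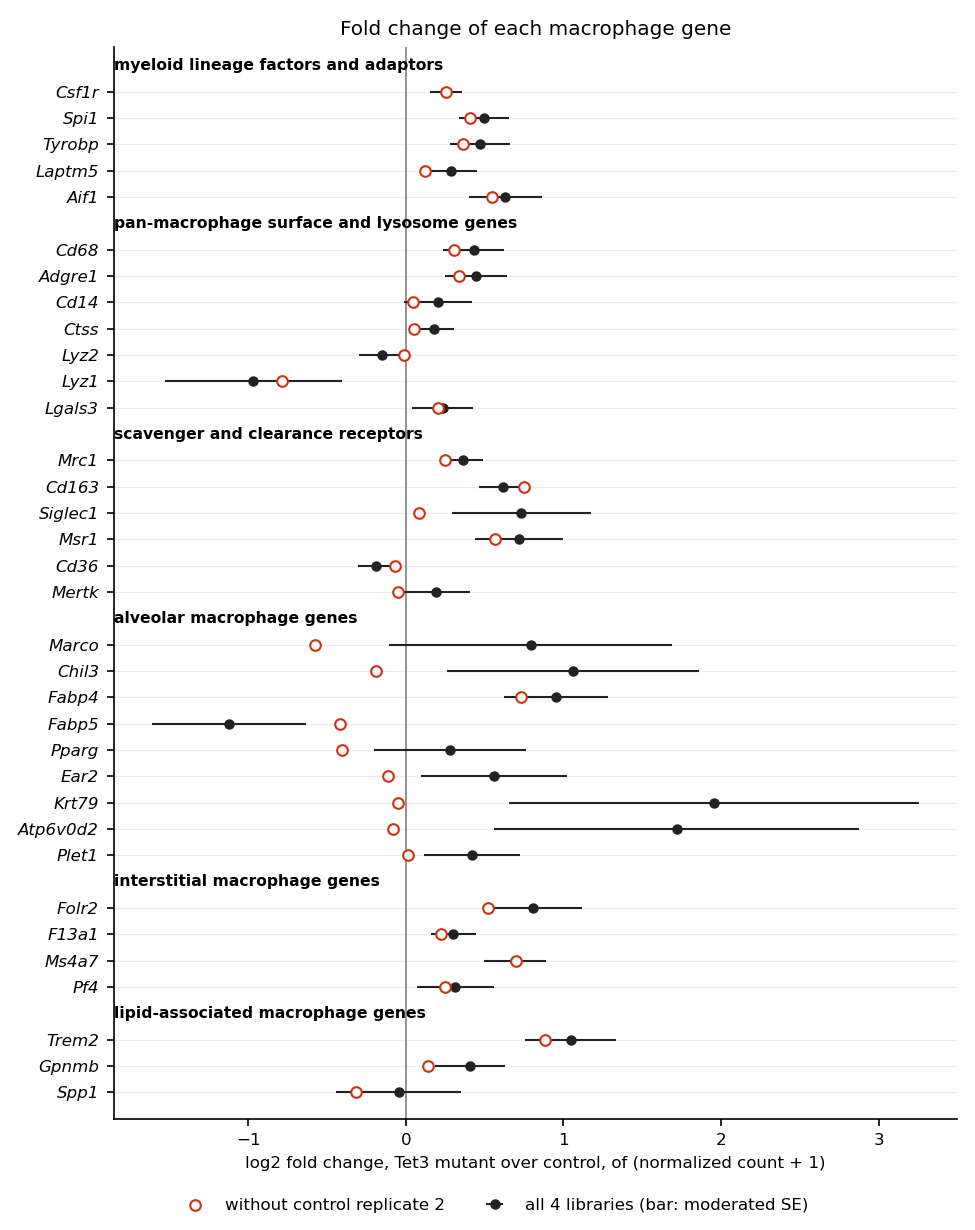
Log2 fold change of each macrophage gene, Tet3 mutant over control, on the scale of log2 of the normalized count plus 1, with all 4 libraries (filled points, bars are moderated standard errors of the limma fit) and without control replicate 2 (open points). For *Krt79*, *Atp6v0d2*, *Chil3* and *Marco* the open point lies below 0, while for *Cd163*, *Ms4a7* and *Trem2* both points lie above 0.5.

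Interstitial macrophage genes were above 0 in 4 of 4 cases, and 3 had both mutants above both controls (19.6% of all genes tested). Their median log2 fold change was 0.50 with all libraries, 0.39 without control replicate 2 and 0.32 without Tet3 mutant replicate 2. *Ms4a7* (chromosome 19, 11321039 to 11336146), a tetraspan protein of tissue macrophages, had 98 and 99 normalized counts in the controls and 170 and 150 in the mutants. Control libraries averaged 98.5 ± 0.707 (SD, n = 2) and mutant libraries 160.0 ± 14.1 (SD, n = 2), a log2 fold change of 0.69 (SE 0.20, limma adjusted p 0.681, unadjusted p 0.0164). Neither control stood apart from the other in this gene, and Tet3 mutant replicate 2 was not the highest library. *Folr2*, which encodes folate receptor β, had 160 and 108 against 184 and 288 (log2 fold change 0.80, SE 0.31), but 51.3% of its 75-base stretches are shared with an overlapping gene model, *Gm10602*, so its value is uncertain. *F13a1*, the A subunit of coagulation factor XIII, had 1260 and 1136 against 1326 and 1639. *Pf4*, a chemokine of platelets and some macrophages, had 134 and 123 against 133 and 192, with Tet3 mutant replicate 1 inside the range of the controls.

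Genes of lipid-associated macrophages were mixed. *Trem2* (chromosome 17, 48346401 to 48354147), a lipid-sensing receptor that signals through the product of *Tyrobp*, had 68 and 54 normalized counts in the controls and 106 and 150 in the mutants. Control libraries averaged 61.0 ± 9.90 (SD, n = 2) and mutant libraries 128.0 ± 31.1 (SD, n = 2), and the log2 fold change of 1.05 (SE 0.29, limma adjusted p 0.681, unadjusted p 0.0147) stood at 0.88 without control replicate 2. *Trem2* had the largest log2 fold change among the 17 genes whose groups did not overlap. *Gpnmb*, a transmembrane glycoprotein, had 414 and 286 against 416 and 503, so that Tet3 mutant replicate 1 and control replicate 1 differed by 2 normalized counts. *Spp1*, which encodes osteopontin, had 191 and 131 against 108 and 217, and its log2 fold change of -0.05 (SE 0.40) was 0.002 after scaling to equal library totals.

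Further genes of the same cells were read from lists of their own. Of 13 further alveolar macrophage genes, 11 were above 0 and 12 were lowest in control replicate 2 (49.0% and 33.1% of all genes tested). Of these 13, 4 had both mutants above both controls and 0 had an unadjusted p under 0.05. The median log2 fold change of 0.61 shrank to 0.03 without control replicate 2. Those of smallest p were *Lpl*, lipoprotein lipase, with 1028 and 919 normalized counts in the controls and 1165 and 1156 in the mutants, *Itgax*, which encodes CD11c, with 696 and 454 against 729 and 1030, and *Ctsk*, cathepsin K, with 283 and 120 against 322 and 352. Of 14 further interstitial macrophage and monocyte genes, 13 were above 0, 11 had both mutants above both controls, 6 were higher at an unadjusted p under 0.05, and the median was 0.32 both with all libraries and without control replicate 2. Over all genes tested, 19.6% had both mutants above both controls and 3.83% were higher at that threshold.

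In that list the fractalkine receptor *Cx3cr1* had 605 and 542 normalized counts in the controls and 827 and 933 in the mutants (log2 fold change 0.62, SE 0.13, limma adjusted p 0.681, unadjusted p 0.00443). The monocyte chemokine receptor *Ccr2* had 955 and 875 against 1231 and 1193, and the complement gene *C1qb* had 480 and 492 against 605 and 683. Control replicate 2 was the lowest library for 7 of these 14 genes (33.1% of all genes tested) and lay above control replicate 1 in *C1qb*. None of the 13 lysosome genes had an unadjusted p under 0.05, and their median was 0.09, with *Ctsd*, cathepsin D, at 637 and 596 normalized counts in the controls against 695 and 678 in the mutants, and *Npc2*, a cholesterol carrier also made by alveolar type 2 cells, at 1152 and 1694 against 907 and 1145. These lysosome genes are used by most cells of the lung.

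Growth factors and receptors that support macrophages had a median log2 fold change of 0.19 over 9 genes, which was 0.002 without control replicate 2. The GM-CSF receptor subunits were *Csf2ra*, with 344 and 382 normalized counts in the controls and 397 and 477 in the mutants, *Csf2rb*, with 751 and 499 against 750 and 793, and its mouse-specific relative *Csf2rb2*, with 281 and 163 against 328 and 342. *Csf2*, the gene of GM-CSF itself, had 36 and 64 against 8 and 15 (log2 fold change -2.03, SE 0.51, limma adjusted p 0.681, unadjusted p 0.0101) and was the 1 gene of this list lower at an unadjusted p under 0.05. It was named after its values were seen, since its mean was below that asked of named genes.

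Markers of other leukocytes had the same direction as most macrophage genes. The 14 pan-leukocyte markers were above 0 in 14 of 14 cases, with a median log2 fold change of 0.52 and sums of 8139 and 6457 normalized counts in the controls and 9395 and 9456 in the mutants. *Ptprc*, the gene of the CD45 protein used for depletion, had 2136 and 1364 in the controls and 2674 and 1885 in the mutants, and *Cd52* had 152 and 185 against 205 and 212. Neutrophil markers (median 0.80, 9 of 9 above 0), dendritic cell markers (0.63, 8 of 8) and T and NK cell markers (1.13, 10 of 10) were also above 0 in every case, as were 7 of 8 B cell markers (0.53). Both mutants lay above both controls for 12 of 14 pan-leukocyte, 7 of 9 neutrophil and 5 of 8 dendritic cell markers. The same held for 4 of 10 T and NK cell and 0 of 8 B cell markers, and for 19.6% of all genes tested. Without control replicate 2 the medians were 0.31 for pan-leukocyte, 0.60 for neutrophil, 0.80 for dendritic cell, 0.13 for T and NK cell and -0.50 for B cell markers. All 10 T and NK cell markers were in control replicate 2 at less than 50% of every other library (2.44% of all genes tested). So were 5 of 8 B cell, 2 of 9 neutrophil, 1 of 14 pan-leukocyte and 0 of 8 dendritic cell markers. Among macrophage genes it was 5 of the 9 alveolar and 0 of the 4 interstitial ones. In bulk libraries such as these, fewer cells of a type and less RNA per cell cannot be told apart, and the part of other leukocytes in the macrophage values was not tested.

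**Figure D4:**
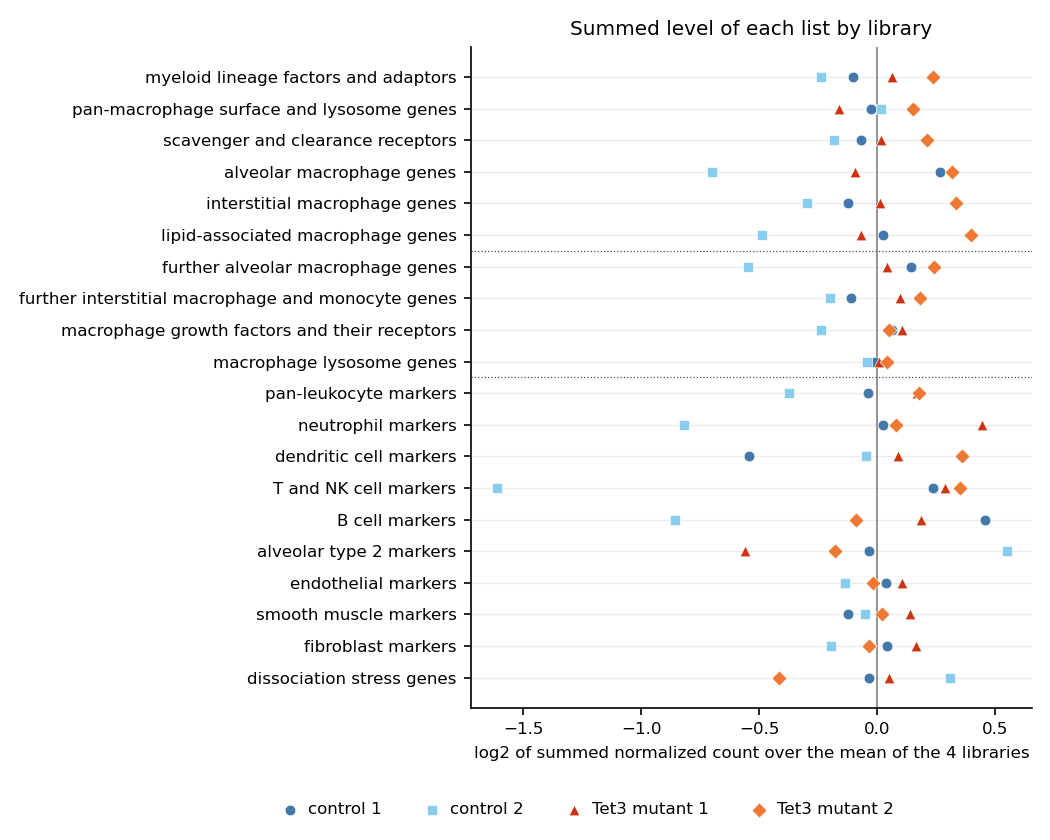
Summed normalized counts of each list in each library, as log2 of the ratio to the mean of the 4 libraries, for the 6 role groups, 4 further macrophage lists and 10 lists of other cells or states. Control replicate 2 lies far to the left for alveolar macrophage, T and NK cell, B cell and neutrophil genes, and both mutants lie right of both controls for lineage factors, interstitial macrophage genes and pan-leukocyte markers among others.

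Markers of resident cells varied in direction. Smooth muscle markers had a median log2 fold change of 0.47, with 9 of 10 above 0 and a median of 0.73 without control replicate 2, and *Acta2* had 686 and 900 normalized counts in the controls and 1032 and 929 in the mutants. Fibroblast markers had a median of 0.18, and *Col1a1* had 3891 and 3261 against 4262 and 3689. Both mutants lay above both controls for 6 of 10 smooth muscle and 2 of 8 fibroblast markers (19.6% of all genes tested). Dissociation stress genes, which respond to tissue digestion, were above 0 in 0 of 11 cases, with a median of -0.29, and summed to 9587 and 12157 in the controls and 10136 and 7344 in the mutants. Their sum was lowest in Tet3 mutant replicate 2, the library highest for 25 of the 34 macrophage genes, and their part in the macrophage values was not tested.

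Some values are limited by how reads were assigned. Besides *Folr2* and the lysozyme genes, *Ear2* shares 23.4% of its 75-base stretches with other genes of its family, *Csf1r* 17.3% with the overlapping *Hmgxb3*, *Chil3* 14.2% with *Chil4* and a related gene model, *Spp1* 7.47% and *Plet1* 7.37% with overlapping gene models, and *Fabp5* 1.33% with related sequences. The other 25 of the 34 genes share none, although *F13a1* overlaps a gene model over 74 exon bases. Use of strand in counting is not given in the sources used here, and genes with an overlapping partner therefore carry uncertain values.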

How the data were processed

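RNA from sorted lung smooth muscle cells was measured in 2 control and 2 Tet3 mutant libraries, grouped and numbered by their labels. Per the labels and the study's methods, libraries of total RNA were made by the authors with a stranded kit after ribosomal depletion, who then trimmed reads with Trimmomatic 0.36, aligned them with STAR 2.6.0c to GRCm38 (mm10), counted reads that fell on a single gene with featureCounts (Subread 1.6.0) and used DESeq2 to scale the counts. What the authors deposited is a score, that is, scaled counts rounded to whole numbers. Raw reads were not recovered from them. The deposited totals were 6805272 to 7164573 per library, and the reads assigned to genes were estimated from how often each low value occurred.

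Values were compared on log2(value + 1), a scale that makes changes of scarce genes look smaller, among 16659 genes whose mean was at least 10. Tests came from limma 3.58.1 (R 4.3.3), whose eBayes step used a mean-variance trend. The p-values were adjusted by Benjamini-Hochberg over the 16659 genes, with 0.05 as the threshold, and the procedure was tested on simulated data. Errors of fold changes are moderated standard errors. Exon lengths came from GENCODE M21 on GRCm38, in which 99.8% of identifiers were found, and 75-base stretches of exons were matched between genes. The 34 genes and all lists were chosen with earlier results of these data known, so lists are given by counts and medians without a test. All 34 genes and *Tet3* were named. So were up to 3 genes of smallest unadjusted p with a mean of at least 50 in each further macrophage list, and genes among the first 2 of the marker lists. *Xist*, *Ddx3y* and *Csf2* served as stated beside them. One gene that this rule names is not reported here. The alternatives tried were other pseudocounts, filters and scalings, limma without the trend, a replicate block and each library left out in turn.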

Additional observations from a re-analysis of the deposited data

How the results depend on the processing

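No gene of the 34 had an adjusted p under 0.05 in any setting. With pseudocounts of 0.5 or 8, means of at least 1 or 50, TMM factors or equal library totals, the median over the 34 genes was 0.41 to 0.47 and 17 to 19 genes had both mutants above both controls. Equal library totals moved the split of all tested genes at an unadjusted p under 0.05 from 638 higher and 474 lower to 796 and 355. *Spp1* turned from -0.05 to 0.002 with equal library totals, the only one of the 34 to turn while all 4 libraries were kept. At an unadjusted limma p under 0.05, 10 genes were higher, and 6 both without the trend and with the replicate block. Under the block 2 were lower (*Fabp5* and *Lyz1*) instead of 0, and the cause was not tested. Over all genes tested, 722 were higher without the trend and 700 with the block, under which 937 were lower. Replicate numbers were not shown to pair libraries, since the labels do not say so and the deviations of the same-numbered libraries correlated at 0.13 over 2 pairs.

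Leaving out each library in turn gave 0 to 15 genes higher and 0 to 2 lower at an unadjusted p under 0.05, 17 to 29 genes higher in the mutants left than in the controls left (29 without control replicate 1 and 27 without Tet3 mutant replicate 1), and a median over the 34 genes of 0.13 to 0.59. Mutants above controls is an order more easily met with 1 library in a group. Over all genes tested, 3259 met it with all 4 libraries, 6650 without control replicate 1 and 5371 without Tet3 mutant replicate 1. It was met by 5392 without control replicate 2 and by 5126 without Tet3 mutant replicate 2. The counts of 29 and 27 are therefore not comparable with the 17 found with all libraries. The median was 0.32 to 0.62 for lineage factors, 0.02 to 0.39 for surface and lysosome genes, 0.17 to 0.59 for scavenger receptors, -0.11 to 1.23 for alveolar, 0.32 to 0.59 for interstitial and 0.14 to 0.68 for lipid-associated macrophage genes. Of the 34 genes, 26 kept their direction, and 8 turned. These were *Mertk* (-0.047 to 0.43), *Marco* (-0.58 to 2.16), *Chil3* (-0.19 to 2.31), *Pparg* (-0.40 to 0.96), *Ear2* (-0.11 to 1.23), *Krt79* (-0.052 to 3.96), *Atp6v0d2* (-0.083 to 3.52) and *Spp1* (-0.55 to 0.45), of which 7 turned without control replicate 2. *Tet3* stayed at -0.39 to -0.30. Where a group is left with 1 library, that library is assumed to vary like the other group. Counts at an unadjusted p under 0.05 from such fits are therefore not comparable with the 10 found with all libraries. Over all genes tested such counts moved too, and were highest without control replicate 1. The 10 genes had log2 fold changes of 0.248 (*Mrc1*) to 0.881 (*Trem2*) without control replicate 2. Without Tet3 mutant replicate 2 they had 0.205 (*Csf1r*) to 0.797 (*Trem2*). The fits by edgeR and DESeq2 need whole reads, which could not be had, and were left out. With 2 libraries a group and values as low as 9 normalized counts, small changes of the scarcer genes were not detectable.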
